A study of Mus musculus with 2 samples.

Results

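Among the 1973 miRNA genes counted in mouse embryonic neural tube, 7 genes were followed here because their miRNAs are known from mesenchyme, the connective, skeletal and vessel wall tissue that surrounds the nervous system. They were taken by gene name, and all 7 were in the table: Mir143 and Mir145a of smooth muscle and pericytes, Mir140 of cartilage, Mir199a-2 and Mir214 of the long RNA Dnm3os, and Mir199a-1 and Mir199b, which lie inside other dynamin genes. Their identifiers in the files are ENSMUSG00000065445 (Mir143), ENSMUSG00000065592 (Mir145a), ENSMUSG00000065439 (Mir140), ENSMUSG00000070126 (Mir199a-2), ENSMUSG00000065516 (Mir214), ENSMUSG00000065547 (Mir199a-1) and ENSMUSG00000092807 (Mir199b). The study measured small RNA in 2 libraries, labelled biological replicates 1 and 2, of neural tube from healthy B6NCrl embryos at day 13.5, each a pool of both sexes. No treatment or mutation is given, and there was 1 condition, so the results are levels, ratios within a library and differences between the libraries. With 2 libraries, the smallest two-sided p that an exact test by flipping signs allows is 0.5, so no p-value is given.

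A miRNA gene is transcribed as a longer RNA, from which a hairpin is cut and then trimmed to a mature strand that guides silencing of messenger RNAs. Bases 2 to 8 of that strand, the seed, choose the targets. Mir143 and Mir145a are neighbours expressed in vascular smooth muscle and pericytes, the contractile cells of vessel walls. Mir140 is the best known cartilage miRNA and lies in the ubiquitin ligase gene Wwp2. Mir199a-2 and Mir214 are made from Dnm3os, an RNA of embryonic mesenchyme transcribed against the dynamin gene Dnm3.

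The mature sequences are shown first because they decide which of these genes can be told apart by reads. Mir143, Mir145a, miR-140-5p and miR-199b-5p were not among the RefSeq (GRCm38.p6) mature sequences used here, which does not show that RefSeq lacks them. For the other 5 of the 7 genes there were 8 mature entries. They hold 5 distinct sequences, and the seed is in capitals, 5′ to 3′:
miR-140-3p of Mir140: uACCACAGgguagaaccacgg
miR-214-3p of Mir214: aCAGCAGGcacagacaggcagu
miR-214-5p of Mir214: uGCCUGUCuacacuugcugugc
miR-199a-5p of Mir199a-1 and Mir199a-2: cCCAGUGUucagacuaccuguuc
miR-199a-3p of Mir199a-1 and Mir199a-2, and miR-199b-3p of Mir199b: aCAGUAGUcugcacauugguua

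The 3p strand was identical in all 3 Mir199 genes, so these genes share 1 seed on that arm. The 5p strand was identical in Mir199a-1 and Mir199a-2. The Mir199b hairpin holds a window that differs from miR-199a-5p by 1 substitution, C10U, counted from 1 at the 5′ end of miR-199a-5p, with the differing base in capitals:
miR-199a-5p: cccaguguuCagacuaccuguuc
Mir199b hairpin window: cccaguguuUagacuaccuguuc

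A read of exactly miR-199a-3p therefore matches 3 hairpins. Flanking bases of the hairpin would have to be read as well to place it: 4 more at the 5′ end for Mir199a-1 and 5 for Mir199a-2 and Mir199b, or at the 3′ end 2 for Mir199a-2 and 4 for Mir199b. For miR-199a-5p, 1 more base at the 5′ end or 5 at the 3′ end separates Mir199a-1 from Mir199a-2. These searches covered the RefSeq miRNA hairpins used here, not the whole genome. Over the hairpins of 1894 genes of the table, the 3 Mir199 genes shared a stretch of 20 nt only with each other, and the other 4 genes shared none. Reads that mapped to several places made up 28.5% and 31.0% of the reads in replicates 1 and 2, and the layout of the files implies that they are in no gene's count, which no header states. If so, the counts of Mir199a-1 and Mir199a-2 miss any read of exactly their mature strands, and those of Mir199b any read of exactly its 3p strand. The seed of miR-214-3p is also that of Mir761, which had 0 counts in each library. The seed of miR-140-3p is also that of Mir497b, which had 1 count in replicate 1 and 0 in replicate 2.

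The libraries held 7019469 and 5738209 same-strand counts on miRNA genes. The files do not name their count columns, and the strand of each column was inferred from its values. Levels are given as CPM (a gene's count divided by that total and multiplied by 1000000), and are not scaled by gene length, since a read spans a mature strand rather than the gene. How evenly different sequences enter a library was not measured. Levels and ratios of different genes are therefore those of reads, not of molecules in the tissue. Markers of nervous tissue were present: 8 of the 11 neuronal marker genes in the table met a minimum of 10 counts in both libraries. Over all 1973 genes this share was 18.8%. The neuronal markers summed to 7633 and 7561 CPM, led by Mir137, while Mir124a-2 was at a mean of 3.52 CPM. All 3 glial markers passed the same minimum, at a summed 2765 and 2690 CPM. Sequences shared with other hairpins were not searched for the neuronal and glial markers. Any reads lost in this way would lower their sums and could change which gene leads. The low count of Mir124a-2 therefore does not show that its miRNA is scarce. In whole tissue, fewer cells of a type and less RNA per cell cannot be told apart, which holds for every level and difference given here.

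The 7 genes together held 0.859% of the counts in replicate 1 (95% Wilson interval 0.852 to 0.866) and 1.06% in replicate 2 (1.05 to 1.07), a mean of 0.960% ± 0.143 (SD, n = 2). A minimum of 10 counts in each library was met by 6 of the 7 genes, against 18.8% of all 1973 genes. Mir199a-1 was the exception, with 3 and 14 counts. The group was dominated by few genes: Mir143 and Mir140 held 89.9% of its counts in replicate 1 and 85.9% in replicate 2, and with Mir214 added 97.5% and 97.6%. The order of the levels was the same in both libraries, Mir143, Mir140, Mir214, Mir199b, Mir145a, Mir199a-2 and Mir199a-1 from highest to lowest, and no 2 neighbours in this order overlapped between their libraries. These shares and this order leave out any lost Mir199 reads, whose number was not measured. Opposite-strand counts on these genes were 3 and 1 for Mir214, 1 and 0 for Mir140 and 0 for the others.

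**Figure D1:**
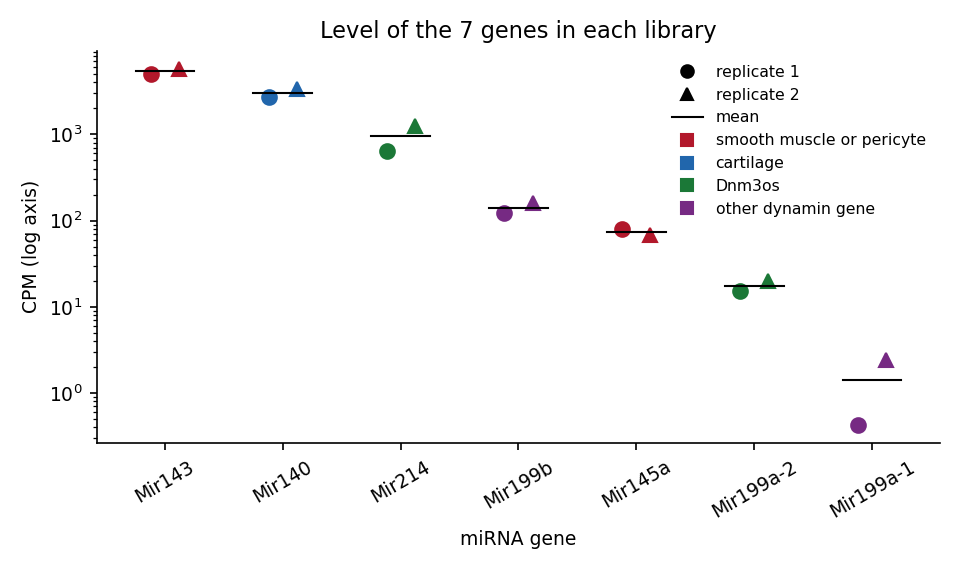
CPM on a log axis of each of the 7 genes in replicate 1 (circle) and replicate 2 (triangle), with the mean as a line and the colour giving the group. Mir143 is highest at 5024 and 5788 CPM and Mir199a-1 lowest at 0.427 and 2.44 CPM.

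Mir143 was the highest smooth muscle or pericyte gene. It had 35266 counts or 5024 CPM in replicate 1 and 33211 counts or 5788 CPM in replicate 2, a mean of 5406 ± 540 CPM (SD, n = 2). It stood at rank 29 of all genes by mean CPM, between Mir127 of the imprinted Dlk1-Dio3 cluster (5605 and 5237 CPM) and the neuronal Mir137 (5025 and 5168 CPM). The values of Mir143 overlapped those of each neighbour between the libraries, so its place next to them is within the replicate spread, while Mir127 was above Mir137 in both libraries.

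Mir145a, its neighbour on the same strand, had 561 counts or 79.9 CPM in replicate 1 and 389 counts or 67.8 CPM in replicate 2, a mean of 73.9 ± 8.58 CPM, at rank 204. Its level thus lay far below that of Mir143 in both libraries. Mir143 exceeded Mir145a 62.9-fold in replicate 1 (exact 95% counting interval 57.8 to 68.5) and 85.4-fold in replicate 2 (77.3 to 94.6), and these intervals did not overlap. The mean log2 ratio was 6.19 ± 0.31 (SD, n = 2). Neither hairpin shared a 20-nt stretch with another miRNA gene of the table. Mir145b, a related gene elsewhere on the chromosome, had 0 counts in each library, which allows a level of up to 0.427 CPM in replicate 1 and 0.523 CPM in replicate 2. These intervals and limits, and all others below, reflect counting error alone, and PCR copies of 1 molecule could not be told from separate molecules, since no molecular identifiers were available.

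In GENCODE M21 (GRCm38) Mir143 lies on chromosome 18, 61649196 to 61649258, and Mir145a at 61647825 to 61647894, both on the minus strand and in no annotated gene of M21. The hairpins are 1302 bases apart. The long RNA Carmn, which regulates cardiac and smooth muscle differentiation, is on the same strand and ends 367 bases before Mir143 in M21. In the RefSeq annotation of GRCm38.p6 Carmn is longer and spans both hairpins. Mir143 and Mir145a thus follow each other in the direction of transcription, with the higher gene first.

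Mir140, the cartilage gene, was the second highest of the 7. It had 18945 counts or 2699 CPM in replicate 1 and 19063 counts or 3322 CPM in replicate 2, a mean of 3011 ± 441 CPM (SD, n = 2), at rank 49. Replicate 2 was the higher library. Its rank neighbours were Mir296 (2945 and 3141 CPM) and Mir423 (3208 and 2349 CPM), and the values of the 3 genes overlapped. Mir140 lies on chromosome 8, 107551244 to 107551313 on the plus strand, within Wwp2 on the same strand. The Wwp2 exons that overlap it are of the retained-intron transcript type only.

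Mir214, in Dnm3os, was the highest gene of the Mir199 and Mir214 group. It had 4549 counts or 648 CPM in replicate 1 and 7160 counts or 1248 CPM in replicate 2, a mean of 948 ± 424 CPM (SD, n = 2). This was the largest spread between the libraries, relative to the mean, among the 6 genes that met the minimum. By mean CPM it stood at rank 81, between Mir433 (1019 and 962 CPM) and Mir134 (864 and 1021 CPM), and its own 2 values lay below and above both of these neighbours. Mir199a-2, from the same RNA, had 108 counts or 15.4 CPM in replicate 1 and 114 counts or 19.9 CPM in replicate 2, a mean of 17.6 ± 3.17 CPM. Mir214 exceeded Mir199a-2 42.1-fold in replicate 1 (34.8 to 51.5) and 62.8-fold in replicate 2 (52.2 to 76.3), a mean log2 ratio of 5.68 ± 0.41. Since reads of the exact Mir199a-2 strands match several hairpins, a lower level of Mir199a-2 and the loss of such reads cannot be told apart in this ratio.

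Mir199a-2 lies on chromosome 1 at 162217814 to 162217923 and Mir214 at 162223368 to 162223477, both on the plus strand. Both overlap exons of Dnm3os, and both lie in introns of Dnm3 on the opposite strand. Mir199a-2 begins 191 bases after the annotated start of Dnm3os and Mir214 begins 5745 bases after it. Mir214, the hairpin with more counts, is thus the later of the pair, unlike Mir143, which comes before Mir145a. The possible loss of Mir199a-2 reads limits this contrast.

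**Figure D2:**
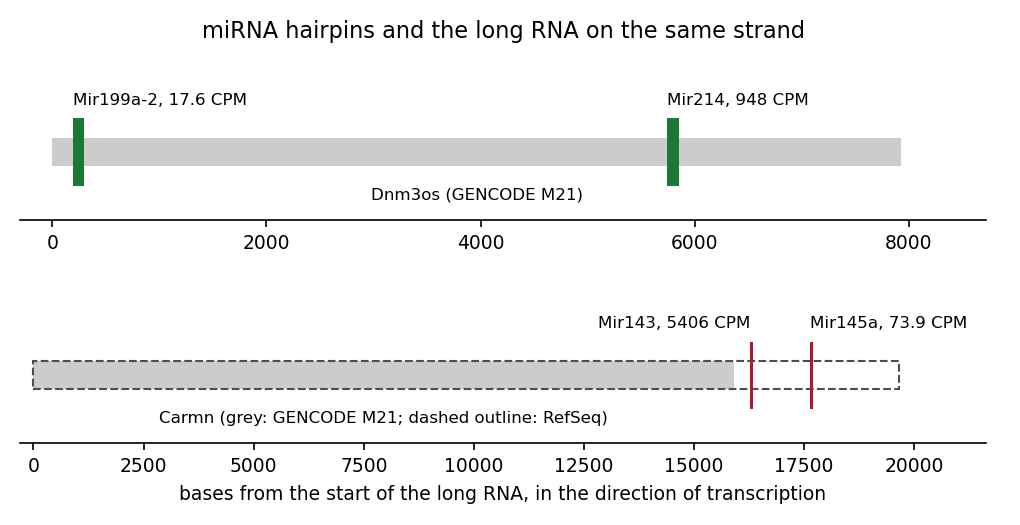
Position of the hairpins (coloured) along Dnm3os (top) and along and after Carmn (bottom), in bases from the start of the long RNA, with the mean CPM of each gene. Mir199a-2 sits near the start of Dnm3os and Mir214 at 5745 bases, while Mir143 and Mir145a lie past the M21 end of Carmn (grey) and within its RefSeq extent (dashed).

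The sequence around the Dnm3os start is shown because Mir199a-2 and Mir214 are both made from this RNA. The RefSeq window chr1:162217373-162217672 (GRCm38.p6, plus strand) runs from 250 bases before to 50 bases after the start, with a CArG box, the motif bound by serum response factor, in capitals:
Dnm3os: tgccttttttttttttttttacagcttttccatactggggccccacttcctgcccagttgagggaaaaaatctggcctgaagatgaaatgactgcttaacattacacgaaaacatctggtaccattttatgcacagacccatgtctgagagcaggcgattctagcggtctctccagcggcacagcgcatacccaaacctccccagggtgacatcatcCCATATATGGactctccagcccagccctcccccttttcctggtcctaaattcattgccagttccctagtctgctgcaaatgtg

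The CArG box begins 33 bases before the start of Dnm3os. A CArG box on either strand was found in 535 of 32851 promoter windows of the same length, or 1.63%. The E-box, CANNTG, a motif of Twist and other basic helix-loop-helix factors, had 3 matches in the Dnm3os window and at least 1 match in 72.3% of all windows. The windows of Wwp2, Dnm1 and Dnm2 held no CArG box. Their E-box matches were 5 for Wwp2, 0 for Dnm1 and 1 for Dnm2. Mir199b and Mir199a-1 lie on the strand opposite to Dnm1 and Dnm2, so those windows do not stand for promoters of these miRNAs. Such matches describe the letters of these windows, and binding was not measured.

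Mir199b and Mir199a-1 lie in introns of dynamin genes on the opposite strand, Mir199b in Dnm1 (chromosome 2, 32318460 to 32318569, plus strand) and Mir199a-1 in Dnm2 (chromosome 9, 21496495 to 21496564, minus strand). All 4 genes of the Mir199 and Mir214 group thus lie antisense within an intron of a dynamin gene. Mir199b had 855 counts or 122 CPM in replicate 1 and 928 counts or 162 CPM in replicate 2, a mean of 142 ± 28.2 CPM (SD, n = 2). Mir199a-1 had 3 counts or 0.427 CPM in replicate 1 and 14 counts or 2.44 CPM in replicate 2.

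Mir199b was the highest of the 3 Mir199 genes in both libraries. It exceeded the sum of Mir199a-1 and Mir199a-2 7.70-fold in replicate 1 (6.31 to 9.47) and 7.25-fold in replicate 2 (6.02 to 8.79), a mean log2 ratio of 2.90 ± 0.062. These intervals overlapped, unlike those of the other ratios described here. Mir199b is also the Mir199 gene whose 5p window carries C10U and can be placed by such reads, while both arms of Mir199a-1 and Mir199a-2 are shared. More expression of Mir199b and fewer lost reads cannot be told apart.

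Between the groups, by the reads counted, the smooth muscle or pericyte pair came first, then Mir140, then the Dnm3os pair, in both libraries. If multimapping reads are in no gene's count, Mir199a-2 in the Dnm3os pair, Mir199a-1 and Mir199b miss such reads. How far this changes the shares, ratios and order below was not measured. The pair Mir143 and Mir145a made up 59.4% and 55.2% of the counts on the 7 genes, Mir140 31.4% and 31.3%, the Dnm3os pair 7.72% and 11.9%, and Mir199a-1 with Mir199b 1.42% and 1.55%. The smooth muscle or pericyte pair exceeded Mir140 1.89-fold in replicate 1 (1.86 to 1.92) and 1.76-fold in replicate 2 (1.73 to 1.79), a mean log2 ratio of 0.87 ± 0.072. It exceeded the Dnm3os pair 7.69-fold (7.46 to 7.93) and 4.62-fold (4.50 to 4.74), a mean log2 ratio of 2.58 ± 0.52. Mir140 exceeded the Dnm3os pair 4.07-fold (3.94 to 4.20) and 2.62-fold (2.55 to 2.69), a mean log2 ratio of 1.71 ± 0.45. Each mean log2 ratio was larger than its SD over the libraries. Both ratios to the Dnm3os pair were lower in replicate 2, the library with the higher Mir214 level, while the ratio of smooth muscle or pericyte pair to Mir140 moved less.

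**Figure D3:**
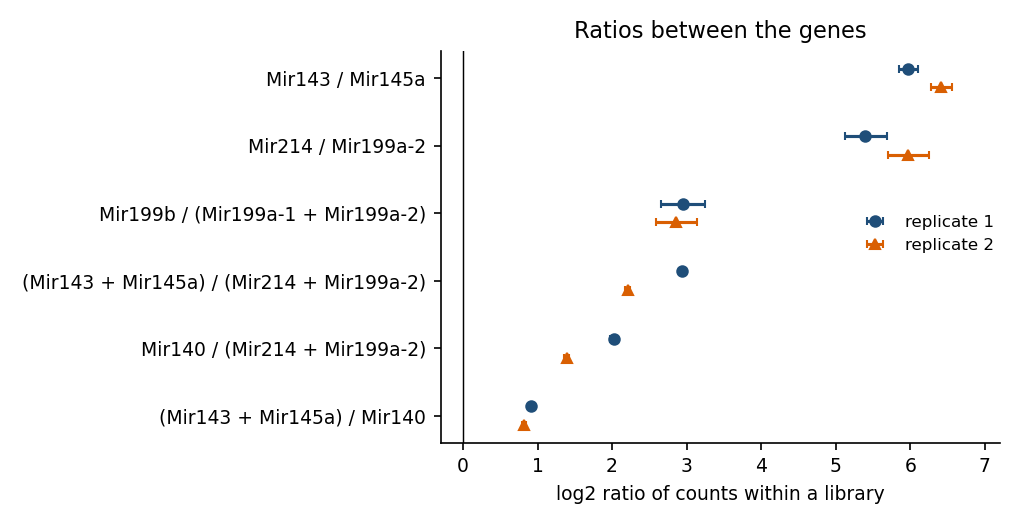
Log2 ratios of counts within each library for 6 comparisons between the genes, with replicate 1 as circles, replicate 2 as triangles and bars for the exact 95% counting interval, smaller than the symbol in some rows. All ratios are above 0, the ratio of Mir143 to Mir145a is the highest in each library, and the ratios to Mir214 plus Mir199a-2 shift most between the libraries.

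The vessel wall pair was set beside Mir126a, the miRNA of the endothelial cells that line the same vessels and that is encoded in Egfl7. Mir126a was at 17134 CPM in replicate 1 and 16019 CPM in replicate 2. It exceeded the summed Mir143 and Mir145a 3.36-fold in replicate 1 (3.32 to 3.40) and 2.74-fold in replicate 2 (2.70 to 2.77), a mean log2 ratio of 1.60 ± 0.21. The endothelial gene was the lower in replicate 2 and Mir143 the higher, so the ratio narrowed there.

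The libraries were then compared gene by gene, as the log2 difference of CPM, replicate 2 over replicate 1, with a pseudocount of 0.5 counts. Of the 6 genes that met the minimum of 10 counts, 5 were higher in replicate 2, against 52.6% of the 371 genes that passed the same minimum. By more than 0.5 log2 units, 1 of the 6 was higher (Mir214), against 5.66% of the 371 genes, and 0 of the 6 were lower, against 7.55%. The median difference of the 6 was 0.33, and that of the 371 genes 0.025. Mir199a-2 and Mir214 come from 1 RNA, so the genes are not independent of each other, and each difference sets 1 library against 1 other, with no replication of the difference itself.

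Mir214 differed most, at 0.95 (exact 95% counting interval 0.89 to 1.00), or 1.93-fold higher in replicate 2, and 6 of the 371 genes had a higher difference. Its partner on Dnm3os, Mir199a-2, was at 0.37, with an interval that includes 0 (-0.024 to 0.76). The interval of Mir199a-2 lies below that of Mir214. Mir199b was at 0.41 (0.27 to 0.54), Mir140 at 0.30 (0.27 to 0.33) and Mir143 at 0.20 (0.18 to 0.23). Mir145a went the other way, at -0.24 (-0.43 to -0.048), although it neighbours Mir143. Mir199a-1, below the minimum, was 5.71-fold higher in replicate 2, with a counting interval of 1.59 to 31.0 that reflects its 17 counts.

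**Figure D4:**
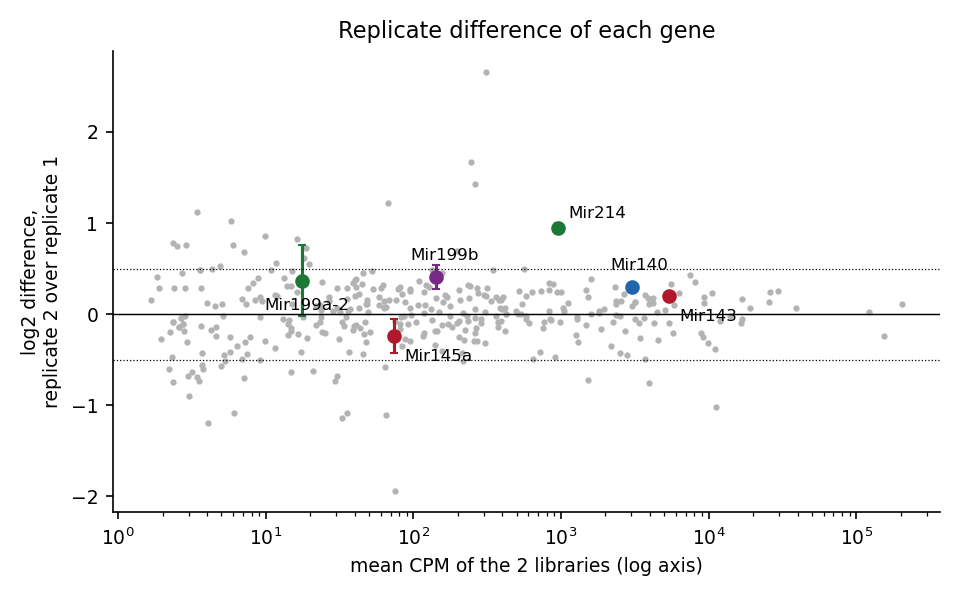
Log2 difference of replicate 2 over replicate 1 against mean CPM (log axis) for the 371 genes that met the minimum of 10 counts per library (grey), with 6 of the 7 genes coloured by group and bars for the exact 95% counting interval. Mir214 lies above the upper dotted line at 0.5, Mir145a lies below 0, and the other 4 lie between 0 and 0.5.

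Other miRNAs studied in connective tissue, cartilage or vessel walls were taken from a separate list of 16 genes, of which 15 were in the table and 12 met the minimum. They held 3.60% and 4.31% of the counts, and 10 of the 12 were higher in replicate 2, against 52.6% of all genes that passed, 1 of them by more than 0.5 (5.66% of all). The highest were Mir335, in the mesodermal gene Mest, at 23945 and 28403 CPM, and Mir322, at 6378 and 8617 CPM. Their differences were 0.25 (0.24 to 0.26) and 0.43 (0.42 to 0.45). Mir675, from the imprinted RNA H19, had the highest difference of the list at 0.73 (0.34 to 1.12), with 99 and 134 counts, and was named after its values were seen. Mir365-1 had 0 counts, and whether its reads match several hairpins was not searched. The median difference of the 12 was 0.24.

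Markers of other cell types also differed between the libraries. The 9 skeletal or cardiac muscle markers in the table summed to 183 CPM in replicate 1 and 419 CPM in replicate 2, most of it from Mir206 (117 and 373 CPM), while Mir208b was lower (48.2 and 22.7 CPM) and Mir133a-1 and Mir133a-2 were at 0. Sequences shared with other hairpins were not searched for these markers or for those below. A count of 0 therefore does not show that the miRNA is absent. Of the muscle markers 4 met the minimum, and 2 of the 4 were higher in replicate 2, against 52.6% of the 371 genes that passed. The same share stands beside the counts for the other cell types below. The 7 epithelial markers summed to 607 and 865 CPM, with 6 of 7 higher in replicate 2, led by Mir203 (466 and 659 CPM) and Mir205 (40.2 and 93.4 CPM). Red cell markers summed to 76.1 and 48.3 CPM, with 0 of 3 higher in replicate 2, and the liver marker Mir122 was at 118 and 30.7 CPM. The 4 leukocyte markers in the table summed to 256 and 237 CPM, with Mir142b at 0, and 1 of the 3 that met the minimum was higher in replicate 2. The part of these cell types, and of dissection, in the replicate differences of Mir143, Mir140, Mir199b and Mir214 was not tested.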

How the data were processed

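Small RNA was sequenced from 2 neural tube libraries of 1 group. The authors deposited raw counts per gene, on build mm10 with annotation M4 per the file headers, and the aligner is not given in the sources used here. The 3 count columns carry no names. From their values, the first was taken as unstranded, the second as same-strand, which was used, and the third as opposite-strand. Lines for unmapped, multimapping and unassigned reads (28.5% and 31.0% multimapping) stayed out of all totals. That multimapping reads are in no gene was inferred from the layout. Gene names and positions are from GENCODE M21, and 1894 of 1973 identifiers matched. The members and lists were chosen with earlier results of these data known.

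All 7 genes were named. Added to them were their nearest genes in rank of mean CPM, Mir126a, Mir145b, genes sharing a seed and the 2 highest members of each list. Values were scaled to the same-strand total, and the procedures were tested on simulated data with counting error alone. That test does not cover the larger difference between the real libraries. The libraries differed beyond counting error (a chi-square of 201 for each degree of freedom, 371 genes) and were kept as 2 replicates. Intervals are Wilson for shares and exact binomial for ratios, at 95%, with a floor of 3 counts. Alternatives were unstranded counts, count minimums of 1 and 100, a pseudocount of 5, totals without Mir10a, edgeR 4.0.16 TMM factors, DESeq2 1.42.0 size factors (R 4.3.3), and each library left out. Python 3.11.15 and scipy 1.17.1 were used for the rest.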

Additional observations from a re-analysis of the deposited data

Results flagged for a closer look

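Reads that mapped to several places made up 28.5% of all reads in replicate 1 and 31.0% in replicate 2, and from the layout of the files they were inferred to lie outside the gene counts. They are listed because the mature strands of Mir199a-1 and Mir199a-2, and the 3p strand of Mir199b, match more than 1 hairpin. How many of these reads are Mir199 reads was not measured. Groups of 2 libraries are too small to look for a sample that stands apart.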

How the results depend on the processing

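Across the alternatives run, no ratio between genes and no replicate difference changed direction. A ratio within a library does not depend on the total, so besides leaving 1 library out, its only alternative was unstranded counts. Few opposite-strand counts lie on these genes, so that alternative could hardly move a ratio. The ratios among the values counted below are therefore no check of stability. With Mir10a, the most abundant gene, left out of the total, the 7 genes held 1.21% in place of 0.960%, which follows from the smaller total. With no minimum count, 2 of the 7 genes were higher in replicate 2 by more than 0.5 log2 units, since Mir199a-1 then enters. Apart from these 2, the other 26 of 28 values for the share, ratios and counts of members stayed within the replicate SD or within 1.5 times the count, as did 39 of 49 values of single genes, where the limit for a replicate difference was its counting interval. A further 30 values of shares, ratios and levels with 1 library left out are not counted, since with 2 libraries they cannot move by a full SD. The replicate difference of Mir214 was 0.89 with edgeR TMM factors, and that of Mir143 0.15. The edgeR TMM factors moved the median difference of all 371 genes by -0.054. Replicate differences cannot be recomputed with 1 library left out. No paired analysis was possible because the study has 1 group. Depth limits Mir199a-1 most, at 17 counts over both libraries.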
